A study of Mus musculus with 8 samples.

Results

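The genes described here are 10 components of Wnt signalling in the mouse kidney, namely the ligands Wnt4, Wnt9b, Wnt11, Wnt7b, Wnt6, Wnt5a and Wnt2b, the secreted agonist Rspo3, and the response genes Axin2 and Lef1. They were picked by name, with earlier results of these data known. Each of the 10 matched 1 of the 49315 Ensembl gene IDs in the deposited count tables through GENCODE M21 symbols. Messenger RNA had been sequenced from 4 control kidneys, called wild type in the extraction protocol, and from 4 Kdm1a conditional knockout kidneys; Kdm1a encodes the histone demethylase LSD1. The recombinase driver, and so the cells in which the allele was deleted, is not stated in the labels used here, nor are strain, age and sex. The labels also do not say whether the 4 libraries of a group came from separate animals, so the p values measure the spread between these libraries. The series asks which genes change when Kdm1a is lost in the kidney.

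Wnt proteins are lipid-modified secreted ligands that bind Frizzled receptors together with Lrp5 or Lrp6. In the canonical branch this stabilises beta-catenin, which joins TCF/LEF factors on DNA and turns on response genes, among them Axin2, whose product in turn limits the pathway. In the embryonic kidney Wnt9b from the ureteric stalk acts on the nephron progenitors around it and induces Wnt4 in the pretubular aggregates, the first step of nephron formation. Wnt11 marks the ureteric tips and takes part in a loop with Ret signalling, and Wnt7b from the ureteric stalk is needed for the medulla to form. R-spondins such as Rspo3 raise the response by keeping the ubiquitin ligases Rnf43 and Znrf3 from removing Frizzled receptors.

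Promoter sequences are given for 3 genes, because Axin2 was the member that passed the test, Sp5 was the response gene with the smallest adjusted p, and Wnt11 was the member whose promoter window held the searched motif. The windows come from RefSeq on the GRCm38.p6 build and run from 250 bases before to 50 bases after an annotated transcript start, 5′ to 3′ on the plus strand of all 3 genes. They are chr11:108920099-108920398 for Axin2, chr2:70474673-70474972 for Sp5 and chr7:98834862-98835161 for Wnt11. Capitals mark the core letters of a TCF/LEF motif, CTTTGAT, or its reverse complement ATCAAAG.
Axin2: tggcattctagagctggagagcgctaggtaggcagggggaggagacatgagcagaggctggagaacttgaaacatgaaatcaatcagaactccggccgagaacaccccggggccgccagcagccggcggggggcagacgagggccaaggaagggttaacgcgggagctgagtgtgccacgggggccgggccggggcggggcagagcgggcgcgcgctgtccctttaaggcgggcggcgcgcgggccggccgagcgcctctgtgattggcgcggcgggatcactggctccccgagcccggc
Sp5: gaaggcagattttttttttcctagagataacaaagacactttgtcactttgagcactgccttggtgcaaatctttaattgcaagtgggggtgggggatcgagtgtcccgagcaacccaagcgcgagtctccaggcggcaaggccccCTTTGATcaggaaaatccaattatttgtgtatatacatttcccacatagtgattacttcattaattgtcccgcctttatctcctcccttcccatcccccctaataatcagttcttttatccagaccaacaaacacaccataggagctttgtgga
Wnt11: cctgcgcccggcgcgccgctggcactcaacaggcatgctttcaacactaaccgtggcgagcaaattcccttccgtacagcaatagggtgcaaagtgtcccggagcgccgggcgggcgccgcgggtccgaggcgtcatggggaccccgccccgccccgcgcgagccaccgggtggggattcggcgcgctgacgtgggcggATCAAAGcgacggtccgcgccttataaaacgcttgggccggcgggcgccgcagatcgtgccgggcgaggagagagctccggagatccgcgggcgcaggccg
The motif begins 104 bases before the start of Sp5 and, as the reverse complement, 51 bases before that of Wnt11. No window of Axin2, Lef1, Wnt4, Wnt9b, Wnt2b or Wnt6 holds these letters, which says nothing about sites elsewhere. Of all 32851 windows in the table, 3.73% hold the motif on either strand. Windows were found for 7 of the 10 members; Wnt7b, Wnt5a and Rspo3 had none.

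Libraries held between 19524945 and 28544511 counts, and levels are given as counts per 1000000 counts of the library (CPM) after scaling by trimmed mean of M values. Kdm1a itself was between 109.7 and 119.8 CPM in the controls and between 90.9 and 95.3 CPM in the knockouts, so all 4 knockouts lay below all 4 controls while the transcript remained abundant (log2 fold change −0.27, SE 0.05, edgeR adjusted p 0.0194). Nephron progenitor genes were present in every library, with Six2 between 96.9 and 219 CPM. Of 7 nephron progenitor markers, 0 were higher and 2 lower in the knockouts past the test. The 2 were Cited1 (log2 fold change −1.64, edgeR adjusted p 0.0225) and Meox1 (−1.45, adjusted p 0.0132), while the other 5 had log2 fold changes above 0. The summed level of 8 proximal tubule markers was 400.0 to 1616 CPM in the controls and 73.1 to 312 CPM in the knockouts, and all 8 were lower in the knockouts past the test. Some libraries carried transcripts of neighbouring organs. The sum of 12 adrenal markers was 2770 CPM in knockout replicate 1, 383 CPM in knockout replicate 4, 154 CPM in control replicate 4 and between 17.7 and 24.7 CPM in the other 5 libraries, where the defining adrenal enzyme Cyp11b1 was at 0.301 CPM or less. The sum of 14 gonad markers was 61.2 CPM in control replicate 2 and at most 5.32 CPM elsewhere, with Stra8 at 0 counts in all 8 libraries. Y-linked transcripts were nearly absent from control replicate 2 and knockout replicates 1 and 4.

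Of the 10 Wnt genes, only Axin2 passed the test between genotypes (an adjusted p under 0.05 over all genes tested), and it was higher in the knockouts. Against this 1 in 10, 14.9% of the 18485 genes tested passed, 6.61% higher and 8.27% lower, so the members as a group were not called more often than other genes. The log2 fold change was above 0 for 7 members and below 0 for 3, with a median of 0.26 against 0.0044 for all genes tested. Groups did not overlap for 2 members, Axin2 and Lef1, with the knockouts higher; among all genes tested 9.29% were apart with the knockouts higher and 9.58% with the knockouts lower. An unadjusted edgeR p under 0.05 was found for 5 members, Axin2, Wnt2b, Lef1, Rspo3 and Wnt7b. Among all 18485 genes tested it was found for 6489. In whole kidney, fewer cells of a type and less transcript per cell cannot be told apart.

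**Figure D1:**
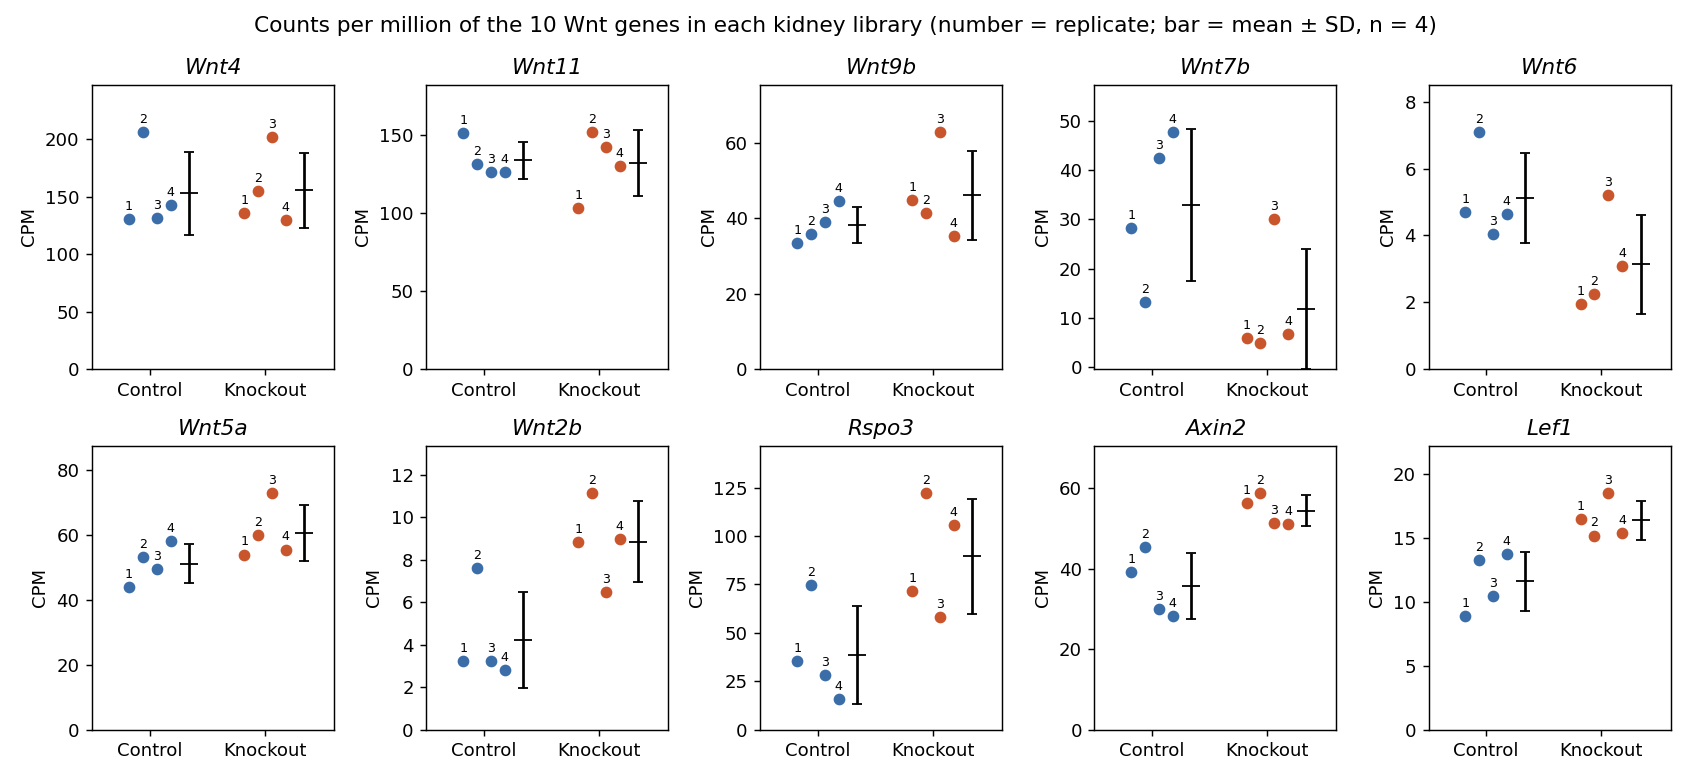
Level in CPM (vertical axes, linear) of each of the 10 genes in the 4 control (blue) and 4 knockout (orange) libraries, numbered by replicate, with mean and SD beside each group. The groups are apart for Axin2 and Lef1, and for Wnt7b knockout replicate 3 lies at 30.1 CPM while the other knockouts are at 4.92 to 6.69 CPM.

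Among the response genes, Axin2, a scaffold of the complex that degrades beta-catenin and a feedback target of the pathway, was the member that changed (ENSMUSG00000000142, chromosome 11, 108920349 to 108950783, plus strand, GRCm38). Axin2 was at 39.2, 45.4, 29.9 and 28.2 CPM in control replicates 1 to 4 and at 56.4, 58.8, 51.5 and 51.2 CPM in knockout replicates 1 to 4. Every knockout was above every control, and the knockouts differed less among themselves (54.5 ± 3.78 CPM, mean ± SD, n = 4) than the controls did (35.7 ± 8.11 CPM, n = 4). Axin2 had a log2 fold change of 0.61 (SE 0.15, 95% interval 0.28 to 0.94), a 1.53-fold rise with an adjusted p of 0.0298. Knockout replicates 2 and 3, whose adrenal marker sums were 17.7 and 19.0 CPM, had Axin2 at 58.8 and 51.5 CPM; knockout replicates 1 and 4, with sums of 2770 and 383 CPM, had it at 56.4 and 51.2 CPM. The call depended on which library was left out. It was kept without control replicate 2 (adjusted p 0.00246) or knockout replicate 3 (0.0355) and lost without control replicates 1, 3 or 4 (0.0649, 0.0876 and 0.0700) or knockout replicates 1, 2 or 4 (0.0771, 0.0796 and 0.0771). The share of all genes called moved with the same libraries. It was 37.4% without control replicate 2, 17.05% without knockout replicate 3 and 0.819% to 3.65% without any other single library. Calls kept or lost in these fits, for Axin2 and the genes below, are thus not particular to those genes. The log2 fold change of Axin2 stayed between 0.51 and 0.75 in these 8 fits. With the adrenal marker level as a covariate it was 0.67 and the adjusted p 0.0565, so the call was lost there too. The part of adrenal transcripts in the level of Axin2 was not tested further.

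Lef1, a DNA-binding partner of beta-catenin that is switched on in pretubular aggregates, was the other member whose groups were apart (ENSMUSG00000027985, chromosome 3, 131110471 to 131224356, plus strand). Lef1 was at 8.89, 13.3, 10.4 and 13.7 CPM in the controls and at 16.4, 15.2, 18.5 and 15.3 CPM in the knockouts. The lowest knockout was thus above the highest control. Lef1 had a log2 fold change of 0.50 (SE 0.15, 95% interval 0.15 to 0.85), and the adjusted p of 0.0575 missed the threshold. Without control replicate 2 it was 0.0239, and without each of the other 7 libraries it was between 0.0740 and 0.154.

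Rspo3, the R-spondin among the members, had the largest upward log2 fold change of the 10 and one of the widest spreads (ENSMUSG00000019880, chromosome 10, 29452416 to 29535867, minus strand). Its level was 35.3, 74.9, 28.3 and 15.9 CPM in the controls and 71.4, 122, 58.3 and 105.9 CPM in the knockouts. Control replicate 2 lay above knockout replicates 1 and 3, while the other 3 controls lay below every knockout. For Rspo3 this gave a log2 fold change of 1.21 (SE 0.43, 95% interval 0.24 to 2.19), with an adjusted p of 0.0846. Without control replicate 2 it was 1.75 with an adjusted p of 0.00468. Knockout replicates 2 and 3, whose adrenal marker sums were 17.7 and 19.0 CPM, had the highest and the lowest knockout value, 122 and 58.3 CPM. In knockout replicates 1 and 4, with sums of 2770 and 383 CPM, Rspo3 was at 71.4 and 105.9 CPM. The part of adrenal transcripts in the level of Rspo3 was not tested.

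Wnt2b and Wnt5a are ligands made by mesenchymal cells. Wnt2b (ENSMUSG00000027840, chromosome 3, 104945272 to 104961921, minus strand) was at 3.24, 7.60, 3.23 and 2.82 CPM in the controls and at 8.83, 11.1, 6.47 and 8.99 CPM in the knockouts. As with Rspo3, control replicate 2 was the only control that reached into the range of the knockouts. Wnt2b had a log2 fold change of 1.07 (SE 0.33, 95% interval 0.33 to 1.81), with an adjusted p of 0.0573 that became 0.00144 without control replicate 2 and 0.0480 without knockout replicate 3. The counts behind this gene were low, from 62 to 250 per library. Wnt5a, which acts mostly outside the beta-catenin branch (ENSMUSG00000021994, chromosome 14, 28504750 to 28527447, plus strand), was at 43.8, 53.1, 49.5 and 58.0 CPM in the controls and at 53.9, 59.8, 72.9 and 55.5 CPM in the knockouts. The groups overlapped, and the log2 fold change of 0.24 (SE 0.12, 95% interval −0.02 to 0.51) did not pass, at an adjusted p of 0.168. Of 10 stromal markers, 3 were called higher, among them Foxd1, a transcription factor of stromal progenitors, and the receptor gene Pdgfra, and none lower (0 of 10), and their summed level was 2454 to 3291 CPM in the controls and 2850 to 4555 CPM in the knockouts. Their part in the values of Rspo3, Wnt2b and Wnt5a was not tested.

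Wnt4 and Wnt11 were the most abundant ligands, and neither differed between the groups beyond the spread of the libraries. Wnt4, the inducer of the mesenchymal to epithelial change (ENSMUSG00000036856, chromosome 4, 137277489 to 137299726, plus strand), was at 130.3, 206, 132 and 143 CPM in the controls and at 136, 155, 202 and 129 CPM in the knockouts. A single library stood high in each group, control replicate 2 and knockout replicate 3, and the rest lay between 129 and 155 CPM. The log2 fold change was 0.03 (SE 0.18, adjusted p 0.929), and its 95% interval from −0.38 to 0.44 bounds what these libraries could show. The gonad marker sum was 61.2 CPM in control replicate 2 and 3.88 CPM in knockout replicate 3, and its part in the level of Wnt4 was not tested. Wnt4 lies 0.675 Mb from Kdm1a on chromosome 4. Its log2 fold change changed sign, to values from −0.11 to −0.01, without control replicate 1, 3 or 4 or knockout replicate 3.

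Wnt11, the ligand of the ureteric tips (ENSMUSG00000015957, chromosome 7, 98835112 to 98855195, plus strand), was at 151, 132, 126 and 126 CPM in the controls and at 103, 152, 143 and 130.3 CPM in the knockouts. The knockouts spanned the whole range of the controls. For Wnt11 the log2 fold change was −0.02 (SE 0.12, 95% interval −0.29 to 0.25, adjusted p 0.913). Among 6 other ureteric tip markers, Ret was called higher and no gene was called lower, the log2 fold change of Ret being 0.82 (SE 0.23, adjusted p 0.0437). Ret was at 65.1 to 154 CPM in the controls and 159 to 208 CPM in the knockouts, and its call was not examined with libraries left out. The log2 fold change was above 0 for 5 of the 6 and below 0 for Sox8 (−0.56, edgeR adjusted p 0.0726). The difference between Wnt11 and Ret was not tested.

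Wnt9b and Wnt7b are both ligands of the ureteric stalk and collecting duct, and neither passed the test. Wnt9b (ENSMUSG00000018486, chromosome 11, 103727364 to 103749821, minus strand) was at 33.4, 35.8, 39.0 and 44.5 CPM in the controls and at 44.9, 41.3, 62.8 and 35.3 CPM in the knockouts. The groups overlapped, with knockout replicate 3 above all others, and the log2 fold change was 0.27 (SE 0.17, 95% interval −0.11 to 0.66, adjusted p 0.274). Wnt7b (ENSMUSG00000022382, chromosome 15, 85535439 to 85581821, minus strand) was at 28.3, 13.3, 42.3 and 47.7 CPM in the controls and at 5.87, 4.92, 30.1 and 6.69 CPM in the knockouts. Knockout replicates 1, 2 and 4 lay below every control, whereas knockout replicate 3 lay among them. For Wnt7b the log2 fold change was −1.46 (SE 0.62, 95% interval −2.86 to −0.05), with an adjusted p of 0.132. Without knockout replicate 3 it was −2.47 with an adjusted p of 0.0148.

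The ratio of Wnt7b to Wnt9b transcripts per length was 0.868, 0.381, 1.11 and 1.10 in control replicates 1 to 4. In the knockouts it was 0.134, 0.122, 0.491 and 0.194, so knockout replicates 1, 2 and 4 were below every control and knockout replicate 3 above control replicate 2. Aqp2, the water channel of the principal cells, was at 305, 218, 792 and 415 CPM in the controls and at 45.2, 22.3, 508 and 64.7 CPM in the knockouts, with knockout replicate 3 again the high one. Calb1, a calcium-binding protein of the ureteric bud and distal nephron, was at 405 to 523 CPM in the controls and 462 to 669 CPM in the knockouts. Over 9 collecting duct markers, 1 was called higher and none lower (0 of 9), and their summed level was 1342 to 2169 CPM in the controls and 1205 to 1963 CPM in the knockouts. As with Wnt7b, control replicate 2 had the lowest control sum (1342 CPM). Knockout replicate 3 had the highest knockout sum, 1963 CPM, the other knockouts being at 1205 to 1252 CPM. The 6 urothelial markers summed to 51.3 to 223 CPM and 58.7 to 154 CPM, with 0 of 6 called by edgeR and 1 of 6 at an unadjusted p under 0.05. The part of these cell types in the level of Wnt7b was not tested.

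Wnt6, a further ligand of the ureteric bud (ENSMUSG00000033227, chromosome 1, 74771892 to 74785322, plus strand), was present at a low level. Its values were 4.71, 7.09, 4.04 and 4.64 CPM in the controls and 1.94, 2.26, 5.23 and 3.09 CPM in the knockouts. Knockout replicates 1, 2 and 4 were below every control, and knockout replicate 3 was not. The log2 fold change was −0.70 (SE 0.33, 95% interval −1.43 to 0.03, adjusted p 0.159), and without knockout replicate 3 it was −1.05 with an adjusted p of 0.0364. Counts ran from 45 to 153 per library.

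Levels can be compared between genes only per length, for which counts were divided by the deposited exon length and scaled to a sum of 1000000 in each library (TPM). In the controls the order by mean was Wnt4 (95.4 ± 28.5 TPM), Wnt11 (83.9 ± 7.71), Rspo3 (33.2 ± 24.1), Wnt9b (21.9 ± 2.52), Wnt7b (19.0 ± 8.48), Wnt5a (17.0 ± 2.31), Axin2 (16.9 ± 4.67), Wnt6 (6.12 ± 1.99), Lef1 (3.43 ± 0.781) and Wnt2b (2.66 ± 1.61), each mean ± SD with n = 4. Neighbours in this order overlapped over the 4 controls except between Wnt11 and Rspo3, between Axin2 and Wnt6, and between Wnt6 and Lef1. In the knockouts the first 4 places were the same, while Axin2 was in place 5 (28.4 ± 2.29 TPM) and Wnt7b in place 7 (7.64 ± 7.65 TPM).

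Wnt4 and Wnt11 together made up 67.7% to 78.1% of the summed TPM of the 7 ligands in the controls and 70.9% to 77.3% in the knockouts. The share of Wnt5a was 6.23% to 7.76% in the controls and 7.99% to 8.78% in the knockouts, so the groups were apart by this measure. Wnt7b held 7.13%, 2.91%, 10.8% and 11.3% in control replicates 1 to 4 and 1.69%, 1.17%, 5.85% and 1.84% in the knockouts. Wnt6 held 2.07% to 3.12% in the controls and 1.08% to 2.05% in the knockouts, with the lowest control just above the highest knockout. Wnt2b held 0.702% to 1.75% and 1.32% to 2.79%. The shares of a library add up to a fixed whole, so a lower share of any ligand raises the shares of the others. In CPM the groups overlapped for Wnt5a. These shares were not tested.

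**Figure D2:**
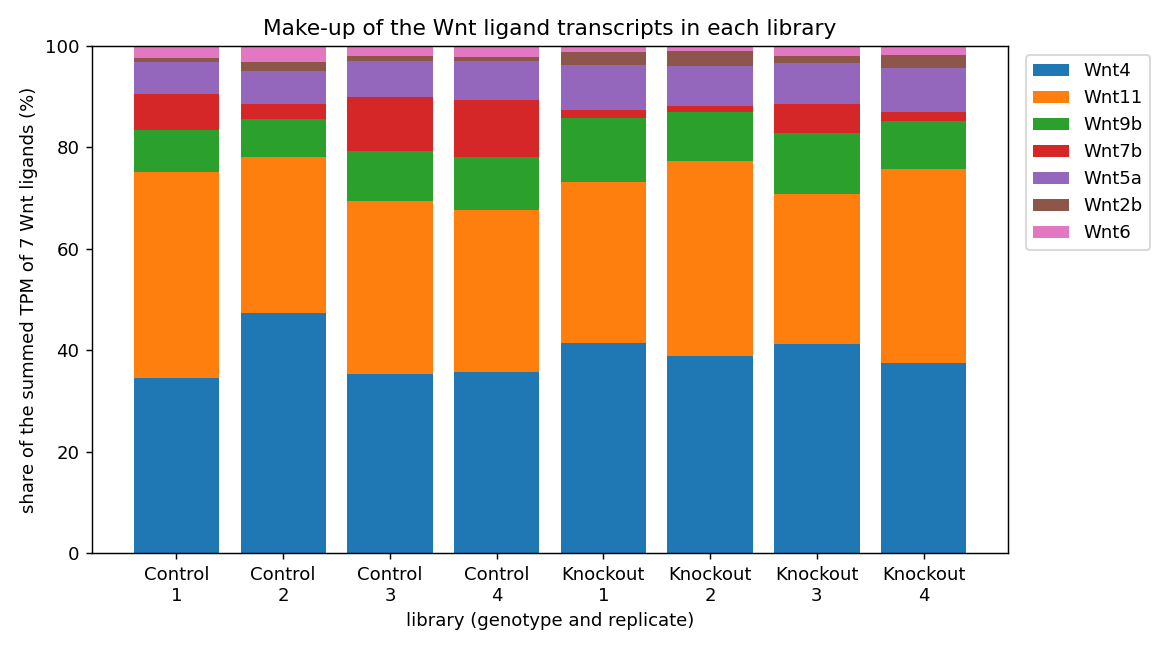
Share in percent of each of 7 Wnt ligands in their summed TPM (vertical axis, 0 to 100) for each of the 8 libraries (horizontal axis). Wnt4 and Wnt11 take from 67.7% to 78.1% in every library, and the band of Wnt7b is thin, at 1.17% to 1.84%, in knockout replicates 1, 2 and 4.

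The same libraries stood at the edges for several members. Control replicate 2 was the highest control for 5 of the 10 genes, Wnt4, Wnt2b, Wnt6, Axin2 and Rspo3, and the lowest for Wnt7b. Knockout replicate 3 was the highest knockout for 6, Wnt4, Wnt9b, Wnt7b, Wnt5a, Wnt6 and Lef1, and the lowest for Wnt2b and Rspo3. These 2 libraries stand out in the values of the members themselves, so a fit without them is no independent support for a call. With these 2 libraries left out together, 6 members were called. Axin2, Lef1, Rspo3 and Wnt2b were then higher (log2 fold changes 0.77, 0.50, 1.91 and 1.63) and Wnt7b and Wnt6 lower (−2.76 and −0.87), with adjusted p values from 2.46e-04 to 0.0419, while 42.7% of all genes tested were called as well. With knockout replicates 1 and 4, which held the most adrenal transcripts, left out together, no member was called (0 of 10, and 1 of all 19167 genes tested), and the log2 fold change of Axin2 was 0.63 (adjusted p 0.205). Knockout replicates 1 and 4 were also the knockouts nearly without Y-linked transcripts (sums of 0.760 and 2.63 CPM). Only 2 knockouts remained in this fit, so adrenal transcripts, Y-linked transcripts and the smaller group cannot be told apart in it.

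**Figure D3:**
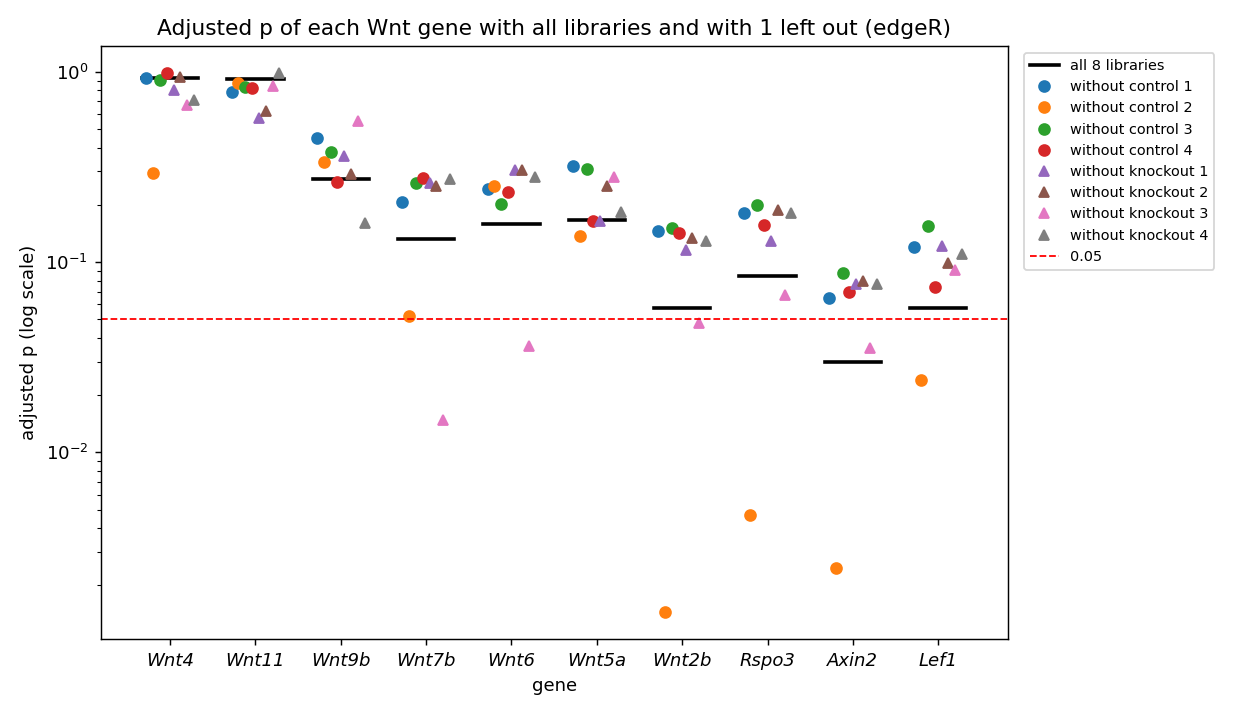
Adjusted p (vertical axis, log scale) of each of the 10 genes with all 8 libraries (black bar) and with each library left out in turn (circles for controls, triangles for knockouts), with the threshold of 0.05 dashed. Leaving out control replicate 2 takes Wnt2b, Rspo3 and Lef1 below the threshold, and leaving out knockout replicate 3 does so for Wnt7b, Wnt6 and Wnt2b. Of all genes tested, 37.4% and 17.05% were called in these fits, and 0.819% to 3.65% without any other single library.

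The rest of the pathway was taken from 10 lists of 101 other genes, of which 92 could be tested. These lists, too, were written with earlier results of these data known. Of these, 12 were called higher and 7 lower, or 20.6% against 14.9% of all genes tested, and their median log2 fold change was 0.13.

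Among general response genes, 3 of 8 tested were called higher and 1 lower, with a median log2 fold change of 0.17. The log2 fold change was above 0 for 4 of them and below 0 for 4. Besides Ccnd1, those below 0 were Nkd2 (−0.65), Myc (−0.41) and Nkd1 (−0.02), none of them called. Sp5, a transcription factor and direct target of beta-catenin whose promoter is printed above, was at 7.25, 8.58, 5.49 and 8.36 CPM in the controls and at 16.1, 19.7, 17.3 and 15.7 CPM in the knockouts. The groups were far apart, the lowest knockout being at 15.7 CPM and the highest control at 8.58 CPM. Its rise was 1.21 in log2 units with an SE of 0.16, and the adjusted p was 0.00815. Dact1, a modulator of Dishevelled, rose from 37.8 ± 4.25 to 75.2 ± 15.2 CPM (0.99, SE 0.15, adjusted p 0.0110). Prickle1, of the planar cell polarity branch, rose from 47.1 ± 2.69 to 60.4 ± 5.49 CPM (0.36, adjusted p 0.0238). Ccnd1, the cyclin D1 gene and a target of many pathways, went the other way, from 261 ± 43.2 to 192 ± 21.0 CPM (−0.44, adjusted p 0.0473). Sp5 and Dact1 stayed called whichever 1 of the 8 libraries was removed, the highest adjusted p being 0.0329 and 0.0490. Without knockout replicates 1 and 4 together these were 0.100 and 0.0940, and neither gene was called. Prickle1 lost its call without control replicates 1 or 3 or knockout replicates 1, 2 or 4 (0.0528 to 0.0788), and Ccnd1 without each library except control replicate 2 (0.0525 to 0.131).

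Among 16 Frizzled receptors and co-receptors, 4 were called higher and 1 lower, with a median log2 fold change of 0.13. Fzd1 rose from 147 ± 3.78 to 190.4 ± 18.1 CPM (0.37, SE 0.07, adjusted p 0.0193), Fzd2 from 114 ± 23.8 to 181 ± 18.3 CPM (0.66, SE 0.14, adjusted p 0.0219) and Fzd7 from 86.3 ± 12.6 to 114 ± 11.5 CPM (0.40, SE 0.11, adjusted p 0.0461). The fourth was Ror1, a receptor of Wnt5a, named after its value was seen (0.75, adjusted p 0.0491). Fzd4, a receptor with a known role in vessels, fell from 169 ± 22.1 to 125 ± 13.3 CPM (−0.43, SE 0.11, adjusted p 0.0332). Each of Fzd1, Fzd2, Fzd4, Fzd7 and Ror1 lost its call without control replicate 1, 3 or 4 and without knockout replicate 2 or 4, at adjusted p values from 0.0523 to 0.134. All but Fzd1 also lost it without knockout replicate 1 (0.0528 to 0.0963), and Fzd7 without knockout replicate 3 (0.0605).

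Among further regulators of the pathway, Rnf43, the ubiquitin ligase that R-spondins act on, rose from 17.3 ± 0.559 to 22.6 ± 1.96 CPM (0.39, SE 0.09, adjusted p 0.0264). Rnf43 was the 1 call among 6 tested R-spondins and receptors. Its close relative Znrf3 had a log2 fold change of 0.30 (adjusted p 0.0950). Notum, an enzyme that removes the lipid from Wnt proteins and is itself induced by the pathway, rose from 7.78 ± 2.20 to 13.5 ± 3.03 CPM (0.80, SE 0.23, adjusted p 0.0473), the 1 call among 16 secreted and membrane inhibitors, whose median was −0.02. Tnks, the tankyrase that marks Axin for degradation, was the 1 call among 14 cytoplasmic transducers (0.25, adjusted p 0.0405). Tle2, a co-repressor of TCF factors, was the 1 call among 11 TCF factors and co-factors (0.35, adjusted p 0.0418). Of these 11, 10 had a log2 fold change above 0, as did 9337 of all 18485 genes tested. Each of Rnf43, Notum, Tnks and Tle2 lost its call without control replicate 1, 3 or 4 and without knockout replicate 1, 2 or 4, at adjusted p values from 0.0566 to 0.124, and Notum also without knockout replicate 3 (0.0777).

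Of the 12 other Wnt ligands, 7 were abundant enough to test. Wnt10a was the 1 call and is named after its value was seen, since its mean was under 1 CPM. It was at 0.788 to 1.36 CPM in the controls and 0.0719 to 0.484 CPM in the knockouts (log2 fold change −2.40, SE 0.53, adjusted p 0.0242), with the highest knockout value again in replicate 3. The call was lost without control replicates 1, 3 or 4 or knockout replicates 1, 2 or 4 (adjusted p 0.0665 to 0.0764). Wnt5b, the most abundant of the 7, was at 16.8 to 24.2 CPM in the controls and 25.1 to 37.3 CPM in the knockouts (0.54, SE 0.16), with an adjusted p of 0.0547, or 0.0218 without control replicate 2. Of the genes for Wnt secretion, 0 of 2 were called, with 0 of 2 also at an unadjusted p under 0.05, and the carrier Wls had a log2 fold change of −0.17 (adjusted p 0.379).

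**Figure D4:**
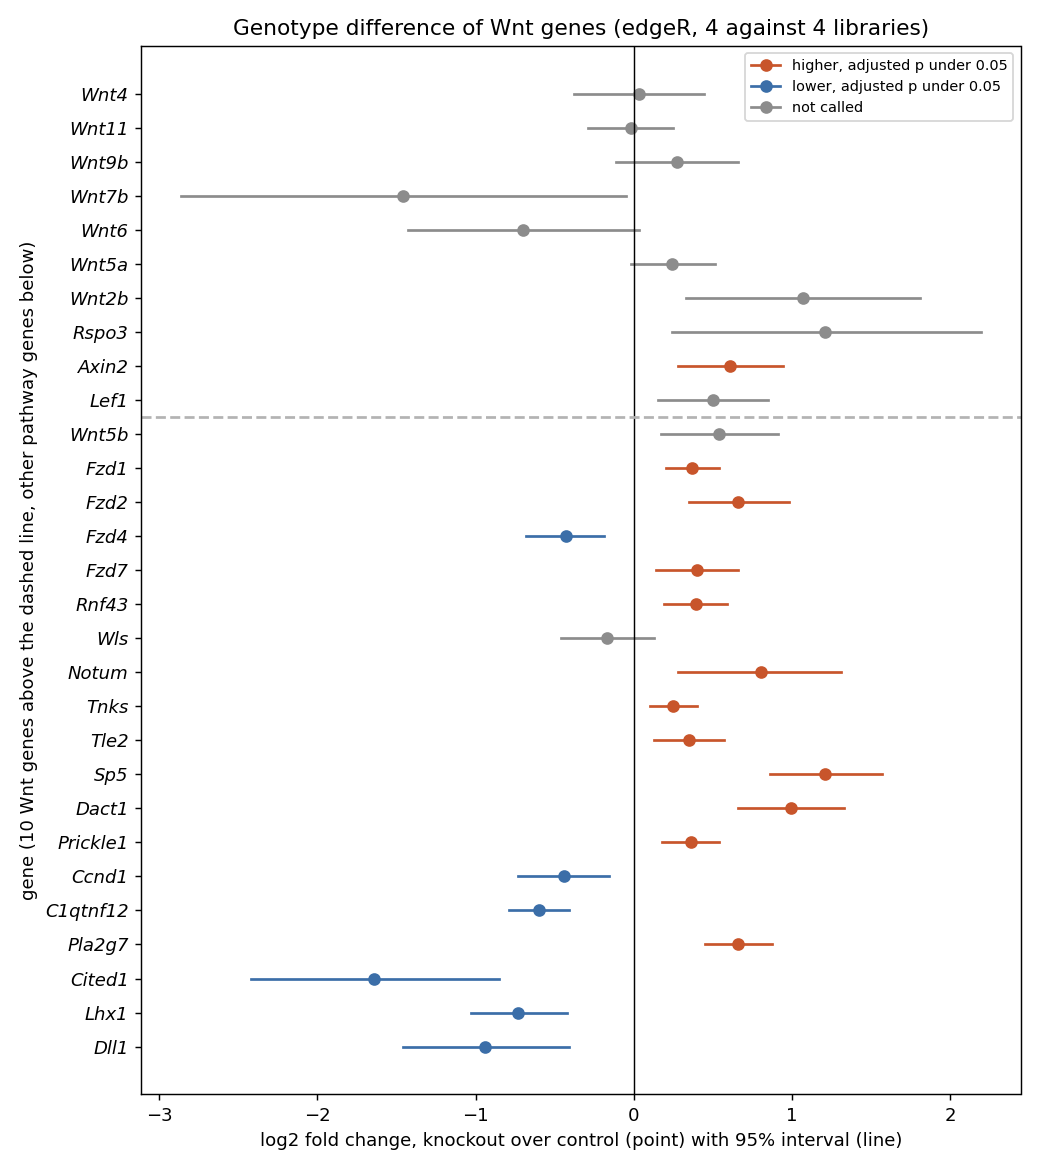
Log2 fold change of knockout over control (horizontal axis) with its 95% interval for the 10 Wnt genes (above the dashed line) and the other pathway genes named in the text (below). Orange and blue points passed the test upward and downward, and the intervals of Wnt4 and Wnt11 lie on both sides of 0.

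Genes downstream of Wnt9b and Wnt4 in the nephrogenic zone moved in different directions. Of 5 genes known to depend on Wnt9b in nephron progenitors, Pla2g7 rose from 88.3 ± 9.38 to 139 ± 11.5 CPM (0.66, SE 0.09, adjusted p 0.00988). C1qtnf12 fell from 74.2 ± 7.49 to 48.8 ± 3.01 CPM (−0.60, SE 0.08, adjusted p 0.00942). Cited1, a mark of the uncommitted progenitors, was at 109.0, 26.2, 81.9 and 70.0 CPM in the controls and at 23.2, 24.9, 20.1 and 24.2 CPM in the knockouts (−1.64, SE 0.35, adjusted p 0.0225), control replicate 2 being close to the knockouts. Uncx and Fam19a5 had log2 fold changes of 0.05 and 0.13 (adjusted p 0.690 and 0.347). Pla2g7 and C1qtnf12 stayed called whichever single library was removed (highest adjusted p 0.0467 and 0.0413), but not without knockout replicates 1 and 4 together (0.133 for both). Cited1 lost its call without control replicates 1, 3 or 4 or knockout replicates 1, 2 or 4 (0.0542 to 0.0744).

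Of 8 genes of the pretubular aggregate and renal vesicle, 3 were called lower and none higher (0 of 8, by edgeR), with a median log2 fold change of −0.35 beside the value of 0.03 for Wnt4, which is made in the same structures. Lhx1, a transcription factor needed for the vesicle, fell from 57.3 ± 8.10 to 34.7 ± 5.44 CPM (−0.73, SE 0.13, adjusted p 0.0173). Dll1, a Notch ligand of the vesicle, fell from 25.3 ± 5.69 to 13.2 ± 3.93 CPM (−0.94, SE 0.23, adjusted p 0.0324). Ccnd1, given above, was the third. Pax8, another early marker, had a log2 fold change of 0.03 (adjusted p 0.762). Lhx1 lost its call without control replicates 1 or 3 or knockout replicate 4 (0.0502 to 0.0655), and Dll1 without control replicates 1, 3 or 4 or knockout replicates 2 or 4 (0.0711 to 0.0987).

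Other annotated genes share bases with 8 of the 10 Wnt genes, in 3 cases on the same strand, and whether reads were counted by strand is not given in the sources used here. The overlapping genes were themselves low, at most 2.01 CPM in any library.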

How the data were processed

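The authors deposited whole-number counts per gene for 4 control and 4 conditional knockout kidney libraries, with exon coordinates and lengths per the file headers, and a table of the whole series in which 0 cells differed. Per the submitters' processing notes the tools were Trimmomatic 0.36, STAR 2.5.2b, featureCounts of Subread 1.5.2 and DESeq2 on GRCm38; settings for strand and for reads with several matches are not given in the sources used here. Groups follow the titles. Library sizes were normalised by TMM (trimmed mean of M values), filterByExpr kept 18485 genes, and genotypes were compared in edgeR 4.0.16 (R 4.3.3, quasi-likelihood F-test) with Benjamini-Hochberg adjustment over all of them. Standard errors and 95% intervals come from the same fit. The fit was run on simulated counts drawn independently for each library. That simulation held no deviating libraries or transcripts of other organs, so it cannot show how the fit behaves with them. One count stood for 0.0350 to 0.0512 CPM, and low genes are limited by counting.

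The members and lists were chosen with earlier results of these data known. All 10 members are named; of the 10 other pathway lists, the text names called genes averaging 1 CPM or more (up to 4 a list by adjusted p), or else the most abundant gene. Other pathway and marker genes named were chosen after their values were seen. Alternatives were DESeq2 size factors, DESeq2 1.42.0, limma-voom 3.58.1 with sample weights, other filters, a replicate block, covariates for Y-linked and adrenal transcripts, the series table, and libraries left out.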

Additional observations from a re-analysis of the deposited data

Results flagged for a closer look

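In each of 58 groups of 4 libraries (the 10 Wnt genes and 19 other pathway genes in each genotype), the highest and lowest values were compared with the rest; chance marks about 1 in 20 such groups. A library far from the other 3 of its group was found in 6 cases. Wnt4 was at 206 CPM in control replicate 2, where the other controls were at 130.3 to 143 CPM. Wnt2b was at 7.60 CPM in the same library and at 2.82 to 3.24 CPM in the other controls. Wnt7b was at 30.1 CPM in knockout replicate 3 and at 4.92 to 6.69 CPM in the other knockouts. C1qtnf12 was at 85.3 CPM in control replicate 1, the other controls being at 69.0 to 71.5 CPM. Prickle1 was at 51.1 CPM in control replicate 4 (others 45.5 to 46.2 CPM) and at 68.6 CPM in knockout replicate 3 (others 56.8 to 58.4 CPM). Control replicate 2 carried gonad markers at a sum of 61.2 CPM and knockout replicate 3 had Aqp2 at 508 CPM; whether these bear on the values was not tested.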

How the results depend on the processing

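The median log2 fold change of the 10 Wnt genes was 0.26 and between 0.13 and 0.35 with 1 library left out. The number of members called was 1 with all libraries. It was 3 with DESeq2 (Axin2, Lef1 and Wnt2b, where 24.4% of all genes were called), 5 with limma-voom and sample weights (adding Rspo3 and Wnt7b, where 44.9% were called), 0 with the adrenal covariate (Axin2 at 0.67, adjusted p 0.0565), 0 without knockout replicates 1 and 4, 6 without control replicate 2 and knockout replicate 3, and 0 to 4 with 1 library left out. The other pathway genes gave 19 calls, and 36, 57, 11, 0 and 53 under those 5 alternatives, and 4 to 47 with 1 library left out. All genes gave 2751 calls, and 4506, 8302, 1195, 1 and 7903, and 153 to 7084 with 1 library left out; the cause of these shifts was not tested. DESeq2 size factors, both filters and the Y-linked covariate left the count of members called at 1. The series table holds the same counts, so its fit could only repeat the main one.

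The titles number the libraries 1 to 4 in each group, but deviations of same-numbered libraries correlated at −0.109, 0.329, 0.229 and −0.059, so the numbers are not taken as pairs. With the replicate block, 4 members were called (Axin2, Rspo3 and Wnt2b higher, Wnt7b lower), 30 other pathway genes and 3229 genes in all; control replicates 1 and 4 correlated best with knockout replicate 3 rather than their own number.

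The sign of Wnt11 turned with the Y-linked covariate (0.02), the adrenal covariate (0.11), without knockout replicates 1 and 4 together (0.14) and in the fits without 1 library (range −0.10 to 0.08), and that of Wnt4 in the fits without 1 library (−0.11 to 0.20); neither was called in any alternative. The other 8 members kept their direction in all 19 alternatives, counting the series table, which repeats the main fit. Depth limits Wnt2b and Wnt6 most, at 45 to 250 counts per library.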

Other observations

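Among Wnt inhibitors, 3 genes chosen after their values were seen were ordered over the libraries much as Wnt7b was, and none of them passed the test. Apcdd1, a membrane inhibitor, was at 110.4, 48.3, 159.7 and 181 CPM in the controls and at 22.0, 24.6, 151 and 29.1 CPM in the knockouts (log2 fold change −1.14, adjusted p 0.248). Sostdc1, a secreted inhibitor, was at 104, 66.2, 152 and 218 CPM in the controls and at 26.8, 9.64, 85.5 and 24.5 CPM in the knockouts (−1.88, adjusted p 0.0669). Nkd2, an inhibitor that acts on Dishevelled, was counted above among the general response genes. Its level was 19.3, 12.4, 20.1 and 24.5 CPM in the controls and 7.81, 10.1, 23.0 and 7.59 CPM in the knockouts (−0.65, adjusted p 0.233). In all 3, control replicate 2 was the lowest control and knockout replicate 3 the highest knockout. The 3 genes were chosen with this order in view, so sharing it with Wnt7b is no separate result.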
